A study of Homo sapiens with 9 samples.

Results

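Messenger RNA of 10 genes of ERBB receptor signalling was followed in LAPC4, a human prostate cancer cell line. The genes were taken by symbol, with earlier results of these data known. They were the receptors EGFR, ERBB2 and ERBB3, the ligands EGF and AREG, and the sheddase ADAM17. The others were the adaptor GRB2, the ubiquitin ligase CBL and the inhibitors ERRFI1 and LRIG1. All 10 are among the 60325 genes in the count files. Of the 10, 9 passed the filter on low counts and were tested among 16796 genes, and AREG did not pass it.

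ERBB receptors are tyrosine kinases of the cell surface that pair with each other when a ligand binds and then recruit adaptors that feed the RAS-ERK and PI3K-AKT cascades. Most of their ligands are made as membrane-bound precursors that a metalloprotease must cut free. Ubiquitin ligases and feedback inhibitors end the signal by blocking the kinase or sending the receptor to the lysosome. In prostate epithelium this signalling runs beside that of the androgen receptor.

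Total RNA was sequenced in 9 libraries at day 30, 3 from each group. Rescue cells carried UGT2B28 overexpressed on the knockdown background, with 1 mg/mL G418 given as the rescue's selection. Knockdown-labelled cells were selected with 3 ug/mL puromycin, and no selection is given for the control cells, labelled NT. UGT2B28 is a UDP-glucuronosyltransferase, an enzyme that couples steroids such as androgens to glucuronic acid. Effects of the selection drugs cannot be told apart from those of UGT2B28. The labels do not say that replicates were separate cultures, so every p-value measures how these libraries vary, which may be technical variation. In bulk libraries, fewer cells of a type and less RNA per cell cannot be told apart.

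UGT2B28 itself had 1139, 1062 and 539 counts in rescue libraries, 63, 70 and 28 counts in knockdown-labelled libraries and 44, 50 and 76 counts in control libraries. Knockdown-labelled and control libraries overlapped (log2 fold change -0.04, 95% confidence interval -0.81 to 0.72, edgeR adjusted p = 0.957), so the transcript showed no drop that passed in cells labelled knockdown. The knockdown-labelled libraries were mixed, at 8.48, 6.18 and 3.05 CPM beside 5.10 to 7.80 CPM in controls. Library 1 lay above and library 3 below every control library. The log2 fold change was 0.25 without library 3 and -1.01 without libraries 1 and 2. Rescue libraries were far above both other groups, at a log2 fold change of 3.66 against knockdown-labelled libraries (edgeR adjusted p = 0.00126). Library totals ran from 8132206 to 14185252 counts. Knockdown-labelled library 3 stood apart from its group: the chi-square of counts over genes, per degree of freedom, was 69.6 and 74.7 against libraries 1 and 2, and 3.56 between those 2. Mitochondrial genes took 6.96%, 5.79% and 7.90% of counts in rescue libraries, 15.1%, 15.8% and 10.2% in knockdown-labelled libraries and 8.17%, 8.57% and 7.62% in control libraries; the part of this in the results below was not tested. All 7 markers of prostate luminal epithelium averaged at least 1 CPM, and their summed level spanned 3148 to 3965 CPM in the rescue, 2126 to 3398 CPM in the knockdown-labelled and 2425 to 3192 CPM in control libraries. The 3 leukocyte markers summed to at most 1.52 CPM, with PTPRC at 0 in every library. The 4 fibroblast markers, 3 of them at 1 CPM or more on average, summed to 38.4 to 104 CPM in the rescue, 37.1 to 41.5 CPM in the knockdown-labelled and 18.9 to 59.7 CPM in the control libraries, and their part in the results was not tested.

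Rescue cells held more EGFR and CBL mRNA than knockdown-labelled cells, and less EGF and ADAM17 mRNA. These 4 of the 9 tested members passed in that comparison, where 9.83% of all genes tested passed. The calls depended on the libraries and the scaling. With 1 library left out at a time, EGFR passed in 6, CBL in 5, EGF in 2 and ADAM17 in 1 of 9 fits. With library size alone as the scaling, EGF and ADAM17 did not pass. EGFR was 1.76-fold as high and CBL 1.46-fold as high, while EGF stood at 0.582 and ADAM17 at 0.718 of the knockdown-labelled level. No member passed between knockdown-labelled and control cells, where 0.00595% of all genes passed, or between rescue and control cells, where 0.149% passed. ADAM17 was the member with the largest difference between knockdown-labelled and control cells. Every knockdown-labelled library was above every control library, as for 11% of all genes. EGFR, CBL, ERBB2 and ERRFI1 were higher in every rescue library than in every control library, as were 12.8% of all genes.

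**Figure D1:**
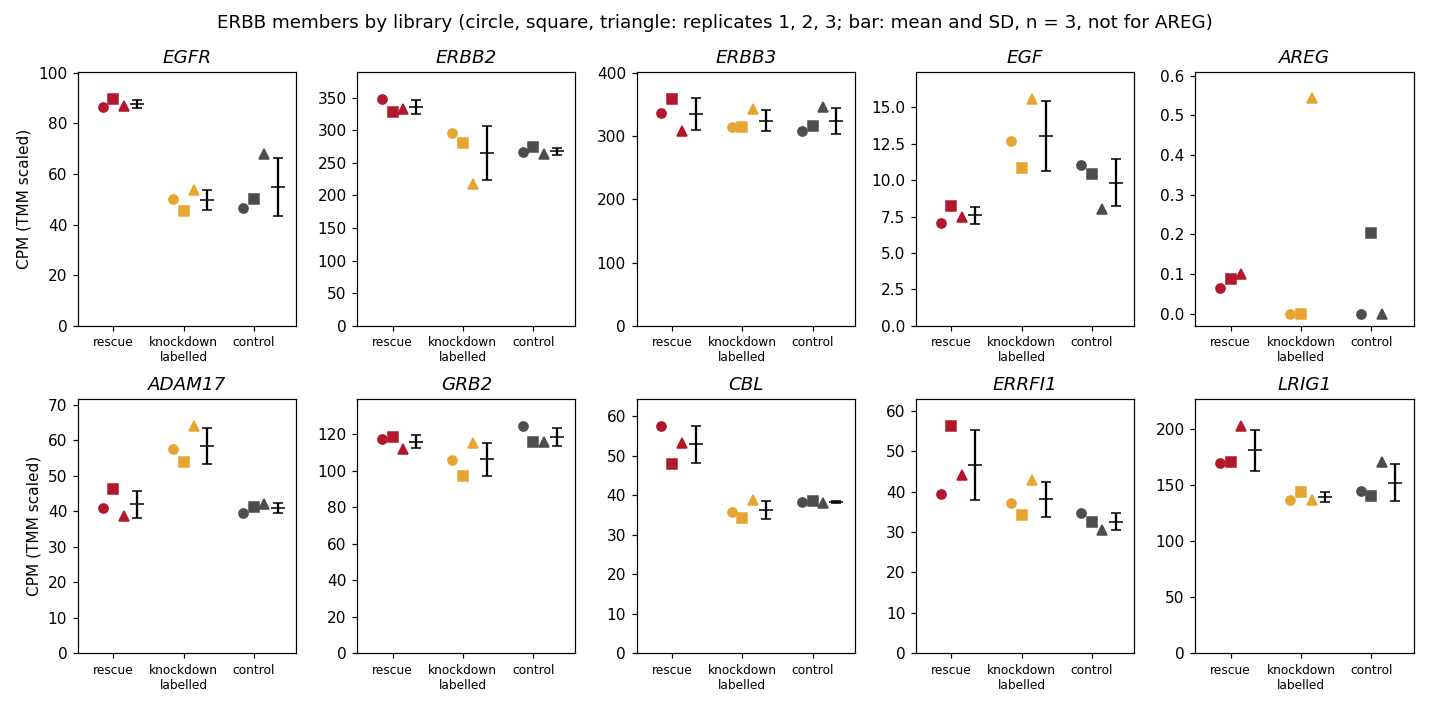
Level of each member in every library, in counts per 1000000 scaled by TMM (CPM, vertical axis, a scale per panel), for rescue, knockdown-labelled and control cells from left to right; points are libraries and bars are means with SD (n = 3). EGFR and CBL are highest in the 3 rescue libraries, ADAM17 is highest in the 3 knockdown-labelled libraries, and ERBB3 overlaps in all groups.

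The stretches before the RefSeq starts of EGFR, EGF and ADAM17 are shown because these members passed and moved in opposite directions. RefSeq promoters on GRCh38.p14 were matched for 8 of the 10 members; CBL and ERBB3 were not matched. Each sequence is the 250 bases 5′ of the start nearest to the annotated gene start, read on the gene's own strand: chr7:55018767-55019016 (plus) for EGFR, chr4:109912633-109912882 (plus) for EGF and chr2:9555831-9556080 (minus) for ADAM17. The RefSeq start of ADAM17 lies downstream of the GENCODE start, so its window is inside the gene span given below. Capitals mark matches, on either strand, to the letters GGGCGG (SP1) or TGACTCA (AP-1).
EGFR: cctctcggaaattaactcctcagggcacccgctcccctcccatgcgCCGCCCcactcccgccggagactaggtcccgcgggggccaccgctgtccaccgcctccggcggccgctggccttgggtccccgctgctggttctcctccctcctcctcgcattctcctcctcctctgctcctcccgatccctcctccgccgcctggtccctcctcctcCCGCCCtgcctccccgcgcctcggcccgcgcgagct
EGF: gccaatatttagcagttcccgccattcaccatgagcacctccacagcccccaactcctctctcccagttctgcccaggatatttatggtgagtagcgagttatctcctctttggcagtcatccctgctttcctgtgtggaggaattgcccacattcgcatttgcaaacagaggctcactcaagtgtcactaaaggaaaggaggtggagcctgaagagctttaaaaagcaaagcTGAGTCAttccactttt
ADAM17: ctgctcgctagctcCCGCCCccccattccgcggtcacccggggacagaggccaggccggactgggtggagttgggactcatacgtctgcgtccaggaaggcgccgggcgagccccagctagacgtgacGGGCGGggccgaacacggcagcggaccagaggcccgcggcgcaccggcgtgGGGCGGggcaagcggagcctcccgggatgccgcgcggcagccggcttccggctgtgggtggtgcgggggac
The EGFR and ADAM17 stretches were rich in G and C, at 73.6% and 75.6%, against 48.8% for EGF. EGFR held 2 and ADAM17 3 matches to GGGCGG, letters found in 42.5% of 34943 promoters of this length. EGF held 1 match to TGACTCA, found in 4.22% of them. The letters TATAAA, in 10.8% of promoters, were also searched on both strands and were not in these 3 windows. Nor were the EGR1 letters GCGGGGGCG or GCGTGGGCG, which occur in 5.35% and can overlap those of SP1. A match is a run of letters and not a measured site. EGFR and ADAM17, which moved in opposite directions, both held matches to GGGCGG, and a link between letters and levels was not tested.

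EGFR, the receptor for EGF and several related ligands, maps to chromosome 7, bases 55019021 to 55211628, plus strand (GRCh38, as all gene positions here). It had 86.6, 89.6 and 86.8 CPM in rescue libraries, 50.2, 45.4 and 53.5 CPM in knockdown-labelled libraries and 46.7, 50.0 and 67.9 CPM in control libraries. The 3 rescue libraries lay close together and above all 6 others, and control library 3 lay above the other controls and above every knockdown-labelled library. The raw counts behind these levels were 874 to 1314 in rescue, 373 to 514 in knockdown-labelled and 401 to 662 in control libraries. EGFR rose by a log2 fold change of 0.82 in rescue against knockdown-labelled libraries (SE 0.146, 95% confidence interval 0.50 to 1.14, edgeR adjusted p = 0.0118). EGFR-AS1, a gene on the opposite strand that shares 186 exon bases with EGFR, had 36, 37 and 28 counts in rescue, 6, 20 and 8 in knockdown-labelled and 10, 16 and 8 in control libraries. Its counts were also highest in the 3 rescue libraries; the strand setting of the counting is not stated in the labels, so shared bases cannot be assigned to either gene.

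ERBB2, the receptor that binds no known ligand and serves as a partner, maps to chromosome 17, bases 39687914 to 39730426, plus strand. Its level was 348, 327 and 333 CPM in rescue libraries, 296, 281 and 218 CPM in knockdown-labelled libraries and 266, 274 and 263 CPM in control libraries. Every rescue library was above the 6 others, and knockdown-labelled library 3 was the lowest of all 9. The log2 fold change of rescue against knockdown-labelled libraries was 0.34 (95% confidence interval 0.05 to 0.64) and did not pass (edgeR adjusted p = 0.124). MIEN1, whose exons share 571 bases with ERBB2 on the opposite strand, had 111, 106 and 153 CPM in rescue, 268, 244 and 87.9 CPM in knockdown-labelled and 124, 127 and 121 CPM in control libraries. MIEN1 split the knockdown-labelled group, with libraries 1 and 2 far above library 3.

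ERBB3, the receptor of the neuregulins with a weak kinase of its own, maps to chromosome 12, bases 56076799 to 56103505, plus strand. It had 336, 358 and 308 CPM in rescue libraries, 315, 314 and 343 CPM in knockdown-labelled libraries and 309, 315 and 346 CPM in control libraries. The 3 groups overlapped throughout. Its log2 fold change was 0.04 for rescue against knockdown-labelled (95% confidence interval -0.22 to 0.31), 0.05 for rescue against control (-0.22 to 0.31) and 0.00 for knockdown-labelled against control libraries (-0.26 to 0.27). Each interval leaves out a change of 1.5-fold either way, and none of the 3 passed.

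EGF, the founding ligand of the family and a membrane-bound precursor before it is cut, maps to chromosome 4, bases 109912884 to 110012266, plus strand. Its counts were low: 107, 94 and 75 in rescue libraries, 94, 123 and 143 in knockdown-labelled libraries and 95, 102 and 78 in control libraries. Scaled, this was 7.05, 8.22 and 7.45 CPM in rescue, 12.7, 10.9 and 15.6 CPM in knockdown-labelled and 11.1, 10.4 and 8.0 CPM in control libraries. All rescue libraries lay below all knockdown-labelled libraries, knockdown-labelled library 3 was the highest of the 9, and control library 3 fell within the rescue range. EGF fell by 0.78 on the log2 scale in rescue against knockdown-labelled libraries (SE 0.206, 95% confidence interval -1.24 to -0.33, edgeR adjusted p = 0.0402).

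AREG, amphiregulin, a ligand that is released by ADAM17, maps to chromosome 4, bases 74445134 to 74455009, plus strand. It had 1 count in each rescue library, 0, 0 and 5 counts in knockdown-labelled libraries and 0, 2 and 0 counts in control libraries. A count of 0 allows up to 3 counts, or 0.198 to 0.404 CPM across the 9 libraries, and only knockdown-labelled library 3 exceeded its limit. A difference between groups was not detectable at this depth, and this limit covers counting error only.

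ADAM17, the metalloprotease that frees several ERBB ligands from the cell surface, maps to chromosome 2, bases 9488486 to 9556732, minus strand. Its level was 40.9, 46.2 and 38.6 CPM in rescue libraries, 57.5, 53.8 and 63.9 CPM in knockdown-labelled libraries and 39.5, 41.0 and 42.1 CPM in control libraries. Every knockdown-labelled library was above all 6 others, and the rescue and control libraries overlapped. ADAM17 fell by 0.48 on the log2 scale in rescue against knockdown-labelled libraries (SE 0.118, 95% confidence interval -0.74 to -0.22, edgeR adjusted p = 0.0316). Between rescue and control libraries the log2 fold change was 0.04, with an interval of -0.22 to 0.30. IAH1, which shares 1323 exon bases with ADAM17 on the opposite strand, had 44.9, 47.9 and 53.2 CPM in rescue, 105, 96.5 and 50.7 CPM in knockdown-labelled and 51.8, 45.7 and 51.8 CPM in control libraries. IAH1 was high in knockdown-labelled libraries 1 and 2 alone, whereas ADAM17 was highest in library 3.

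GRB2, the adaptor that couples phosphorylated receptors to the RAS exchange factor SOS, maps to chromosome 17, bases 75318076 to 75405709, minus strand. It had 118, 119 and 112 CPM in rescue libraries, 106, 97.2 and 115 CPM in knockdown-labelled libraries and 124, 116 and 116 CPM in control libraries. The knockdown-labelled libraries lay just below all controls and overlapped the rescue libraries. The log2 fold change was 0.13 for rescue against knockdown-labelled (edgeR adjusted p = 0.477) and -0.16 for knockdown-labelled against control libraries (edgeR adjusted p = 0.458), and neither passed.

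CBL, the ubiquitin ligase that tags activated EGFR for degradation, maps to chromosome 11, bases 119206276 to 119313926, plus strand. Its level was 57.5, 47.9 and 53.3 CPM in rescue libraries, 35.7, 34.3 and 38.8 CPM in knockdown-labelled libraries and 38.2, 38.5 and 38.0 CPM in control libraries. Every rescue library was above the 6 others, and the knockdown-labelled libraries spread around the controls, which lay within 1 CPM of each other. CBL rose by a log2 fold change of 0.54 in rescue against knockdown-labelled libraries (SE 0.114, 95% confidence interval 0.29 to 0.80, edgeR adjusted p = 0.0198). MCAM, which shares 509 exon bases on the opposite strand, had at most 23 counts in any library, against 265 to 872 counts for CBL.

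Neither inhibitor passed in any comparison. ERRFI1, also called MIG6, binds the EGFR kinase domain and blocks it; it maps to chromosome 1, bases 8004404 to 8026308, minus strand. It had 39.3, 56.1 and 44.1 CPM in rescue libraries, 37.3, 34.3 and 42.8 CPM in knockdown-labelled libraries and 34.7, 32.5 and 30.6 CPM in control libraries. All rescue libraries were above all controls, and rescue library 1 lay within the knockdown-labelled range. LRIG1, a membrane protein that promotes the loss of ERBB receptors, maps to chromosome 3, bases 66378797 to 66501263, minus strand. Its level was 170, 171 and 202 CPM in rescue libraries, 136, 144 and 137 CPM in knockdown-labelled libraries and 145, 140 and 171 CPM in control libraries. Rescue libraries were above all knockdown-labelled ones, and control library 3 reached into the rescue range. For rescue against knockdown-labelled libraries the log2 fold change was 0.29 for ERRFI1 (edgeR adjusted p = 0.243) and 0.38 for LRIG1 (edgeR adjusted p = 0.0757), and neither passed. SLC25A26, which shares 907 exon bases with LRIG1 on the opposite strand, had 156, 159 and 195 CPM in rescue, 146, 150 and 146 CPM in knockdown-labelled and 136, 142 and 167 CPM in control libraries.

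For rescue against knockdown-labelled cells, the log2 fold changes of 7 of the 9 tested members were above 0, and their median was 0.29 beside -0.00 over all genes tested. By direction, 2 members rose, where 4.44% of all genes rose, and 2 fell, where 5.39% of all genes fell. On CPM, 4 members (EGFR, ERBB2, CBL and LRIG1) were higher in every rescue library than in every knockdown-labelled library, beside 14.6% of all genes. EGF and ADAM17 were lower in every rescue library, beside 14% of all genes. A rank or permutation test of 3 against 3 libraries cannot give a two-sided exact p under 0.1.

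**Figure D2:**
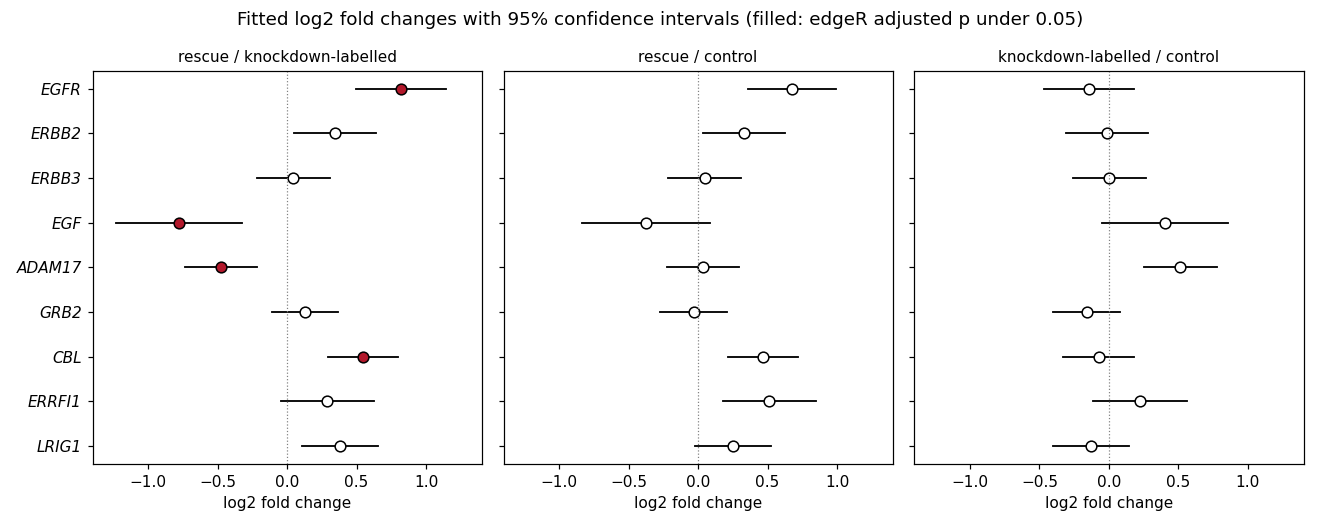
Fitted log2 fold change (horizontal axis) of the 9 tested members in the 3 comparisons, with 95% confidence intervals; filled points passed at an edgeR adjusted p under 0.05. The filled points are EGFR and CBL on the positive side and EGF and ADAM17 on the negative side, all in rescue against knockdown-labelled cells.

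The 4 calls kept their direction in all 20 alternative analyses but not their side of the threshold. With 1 library left out at a time, EGFR passed in 6 of 9 fits, and did not pass without knockdown-labelled library 2 (edgeR adjusted p = 0.0609), rescue library 1 (0.0537) or rescue library 2 (0.0516). CBL passed in 5 of 9, and did not pass without knockdown-labelled library 1 (0.0613) or 2 (0.0841) or rescue library 1 (0.0914) or 3 (0.0658). EGF passed in 2 of 9, without control library 3 (0.0464) or knockdown-labelled library 3 (0.0235), and its adjusted p was 0.0644 to 0.135 in the other 7 fits. ADAM17 passed in 1 of 9, without knockdown-labelled library 3 (0.00588), and its adjusted p was 0.0514 to 0.120 in the other 8. Without knockdown-labelled library 3, 7 members passed, adding ERBB2, ERRFI1 and LRIG1, in a fit where 39% of all genes passed. Without libraries 1 and 2 of that group the log2 fold change of EGFR was 0.74, and the lone remaining library is assumed to vary like the other groups. In the other 8 fits with a library left out, 0.776% to 6.13% of all genes passed. With library size in place of TMM, EGF (log2 fold change -0.56, edgeR adjusted p = 0.228) and ADAM17 (-0.24, 0.447) did not pass. In that fit 9.27% of all genes passed, and the median of all genes moved to 0.24. The TMM factors were 0.793, 0.800 and 1.11 in knockdown-labelled libraries 1, 2 and 3, and 1.03 to 1.09 in rescue libraries. Fitting only the rescue and knockdown-labelled libraries ended all 4 calls, with EGFR nearest to the threshold (edgeR adjusted p = 0.0546). In that fit 0.0426% of all genes passed, so that nearly every call of this comparison ended with those of the members. Correcting for the length and GC content of genes left EGFR past the threshold (0.58, edgeR adjusted p = 0.0354) and CBL not (0.37, 0.0831). After that correction 6.39% of all genes passed.

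**Figure D3:**
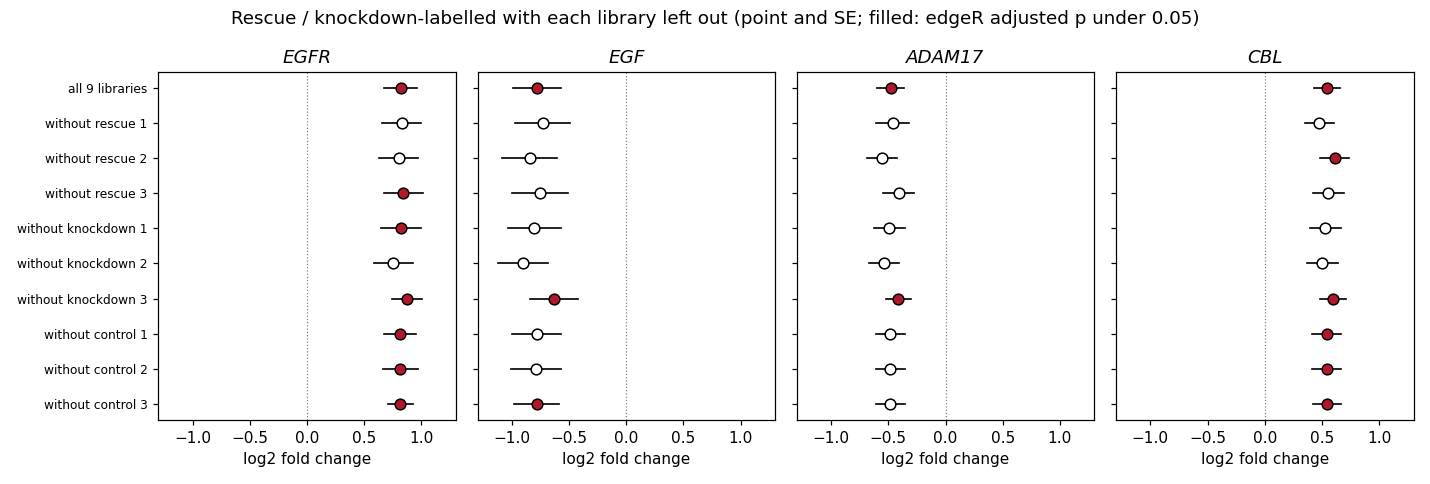
Log2 fold change (horizontal axis) of rescue against knockdown-labelled cells for the 4 members that passed, with each of the 9 libraries left out in turn; points carry the SE and filled points passed at an edgeR adjusted p under 0.05. The sizes keep their sign, with EGFR between 0.75 and 0.88 and CBL between 0.48 and 0.61. EGF lies between -0.90 and -0.63 and ADAM17 between -0.55 and -0.41. The number of filled points differs between 6 for EGFR and 1 for ADAM17.

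Between knockdown-labelled and control cells none of the 9 tested members passed in edgeR. ADAM17 was the single member with an unadjusted p under 0.05, beside 19.1% of all genes, at a log2 fold change of 0.51 (SE 0.118, 95% confidence interval 0.25 to 0.77, edgeR adjusted p = 0.0839), and was higher in 3 of 3 knockdown-labelled libraries. Those libraries lay 0.49, 0.39 and 0.64 log2 units above the control mean. The DESeq2 Wald test called ADAM17 (adjusted p = 0.0087) with 6.01% of all genes, and limma-voom called no member. edgeR called ADAM17 in 1 of 9 fits with a library left out, that without knockdown-labelled library 3 (0.44, edgeR adjusted p = 0.00466), where 32.9% of all genes passed. Without libraries 1 and 2 its log2 fold change was 0.62, and the lone remaining library is assumed to vary like the other groups. ADAM17 did not pass in edgeR with library size alone (0.31, edgeR adjusted p = 0.432) or with the replicate number as a block (0.207). Nor did it pass with only these 2 groups fitted (0.241) or after the length and GC correction (0.119). On CPM, ADAM17 was higher and GRB2 lower in every knockdown-labelled library than in every control library, beside 11% and 10.2% of all genes, or 21.2% in either direction. EGF had a log2 fold change of 0.41 (95% confidence interval -0.05 to 0.86, edgeR adjusted p = 0.311). EGFR was at -0.14 and CBL at -0.07, both with intervals that include 0.

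Rescue and control cells, which share their libraries with the comparisons above, were set side by side as the remaining pair. None of the 9 tested members passed in edgeR, where 0.143% of all genes passed as higher, and 4 had an unadjusted p under 0.05, as did 10.5% of all genes. All 4 were higher in the rescue libraries. These were EGFR (log2 fold change 0.68, 95% confidence interval 0.36 to 1.00, edgeR adjusted p = 0.108), CBL (0.47, 0.22 to 0.72, 0.151), ERRFI1 (0.51, 0.18 to 0.85, 0.246) and ERBB2 (0.33, 0.03 to 0.62, 0.415). The same 4 were higher in each of the 3 rescue libraries than in every control library, beside 12.8% of all genes (26.4% in either direction). The DESeq2 Wald test called EGFR (adjusted p = 0.00555) and CBL (0.0228) with 1.94% of all genes, and limma-voom called no member. All 4 passed in edgeR when the knockdown-labelled libraries were left out of the fit, when only library 3 of that group was left out, and when libraries 1 and 2 were. In those fits, in that order, 5.87%, 7.38% and 5.27% of all genes passed, and EGFR had an edgeR adjusted p of 0.00412, 0.00141 and 0.00348.

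Ratios of raw counts within a library do not depend on how libraries are scaled, and 5 were chosen for display after the values were seen. ADAM17 counts per GRB2 count were 0.347, 0.390 and 0.345 in rescue libraries, 0.543, 0.553 and 0.553 in knockdown-labelled libraries and 0.317, 0.354 and 0.363 in control libraries. The 3 knockdown-labelled libraries lay close together, at 0.550 ± 0.00614 (SD, n = 3), and lay above all others; library 3 did not stand apart in this ratio. The knockdown-labelled mean was 1.59-fold that of the controls. GRB2 itself was lower in every knockdown-labelled library than in every control library, and the fitted change of ADAM17 alone was 1.43-fold. Per GRB2 count, 16.8% of all genes were higher in every knockdown-labelled library than in every control library. CBL counts per ADAM17 count were 1.41, 1.04 and 1.38 in rescue, 0.621, 0.639 and 0.608 in knockdown-labelled and 0.968, 0.938 and 0.902 in control libraries. This ratio of ligase to sheddase separated all 3 groups, and its rescue mean was 2.05-fold the knockdown-labelled mean. CBL and ADAM17 were already called in opposite directions between rescue and knockdown-labelled cells, so the separation of those groups restates the calls. The share of all genes that separate per ADAM17 count was not computed.

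EGFR counts per ERBB3 count were 0.257, 0.250 and 0.282 in rescue libraries, 0.159, 0.144 and 0.156 in knockdown-labelled libraries and 0.151, 0.159 and 0.196 in control libraries. Every rescue library was above the 6 others, and the rescue mean was 1.72-fold the knockdown-labelled mean. EGF counts per EGFR count were 0.0814, 0.0917 and 0.0858 in rescue, 0.252, 0.239 and 0.291 in knockdown-labelled and 0.237, 0.208 and 0.118 in control libraries. Rescue libraries were lowest, and control library 3, with the most EGFR of the controls, was nearest to them. EGFR per ERBB2 separated rescue from knockdown-labelled cells by little, at 0.249, 0.274 and 0.261 against 0.169, 0.161 and 0.246, and it overlapped between rescue and control libraries, where control library 3 reached 0.258. For these 3 denominators the share of all genes that separate was not computed.

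**Figure D4:**
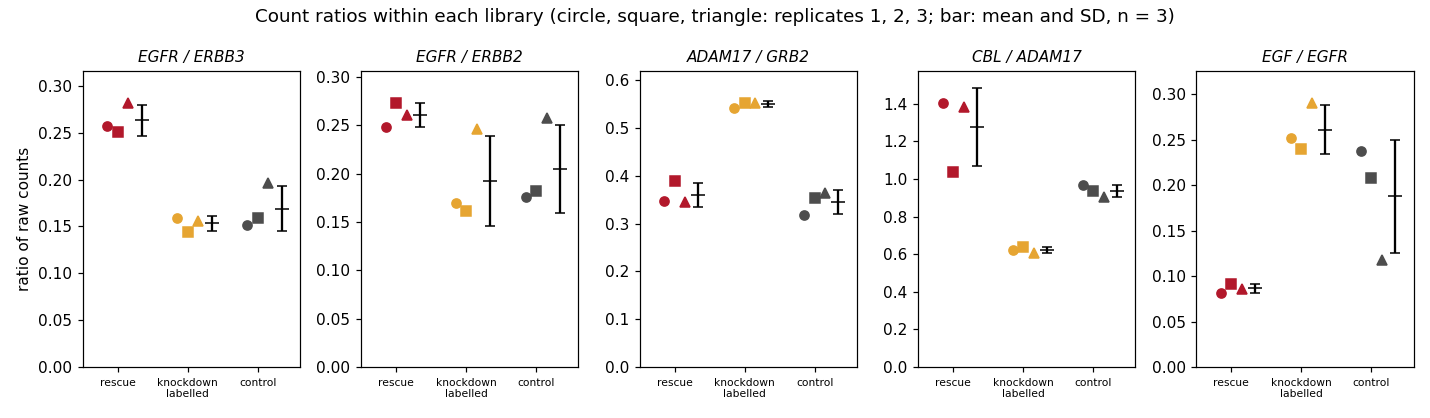
Ratios of raw counts of 2 members within each library (vertical axis, no unit) for rescue, knockdown-labelled and control cells from left to right; bars are means with SD (n = 3). ADAM17 per GRB2 is about 0.55 in each knockdown-labelled library and at most 0.390 elsewhere, and EGFR per ERBB3 is at least 0.250 in rescue and at most 0.196 elsewhere.

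Of the 36 ratios between 2 tested members, 24 did not overlap between rescue and knockdown-labelled libraries, and all 8 that held EGFR, all 8 with EGF and all 8 with ADAM17 were among them. Between knockdown-labelled and control libraries 13 of 36 did not overlap, and ADAM17 was in 7 of its 8. Between rescue and control libraries 18 of 36 did not overlap. The 36 ratios share genes and are not independent. EGFR, EGF and ADAM17 were already called between rescue and knockdown-labelled cells, so their ratios restate those calls. Of the 8 ratios that held GRB2, 4 did not overlap in each of the 3 comparisons. Only these 8 can be set beside the shares of all genes that follow. With GRB2 as the common denominator, 28.1% of all genes did not overlap between rescue and knockdown-labelled libraries (9.82% higher and 18.3% lower in rescue). The share was 21.6% between knockdown-labelled and control libraries (16.8% higher and 4.81% lower in knockdown-labelled) and 24% between rescue and control libraries (14% higher and 10% lower in rescue).

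Levels were compared between members as CPM per kilobase of the union of a gene's exons. In rescue cells the order was ERBB3, ERBB2, LRIG1, GRB2, ERRFI1, EGFR, CBL, ADAM17, EGF and AREG, at 37.0, 32.6, 25.7, 24.6, 11.1, 7.0, 4.50, 3.89, 1.24 and 0.051 CPM per kilobase. Control cells held 35.8 ± 2.22 of ERBB3, 25.9 ± 0.540 of ERBB2, 25.2 ± 1.05 of GRB2, 21.6 ± 2.34 of LRIG1 and 7.78 ± 0.495 of ERRFI1 (CPM per kilobase, SD, n = 3). Below them in the controls came EGFR at 4.38 ± 0.911, ADAM17 at 3.8 ± 0.121, CBL at 3.25 ± 0.0223 and EGF at 1.60 ± 0.263 CPM per kilobase. In controls the libraries of ERBB2 and GRB2 overlapped, as did those of EGFR and ADAM17, and the other neighbours in the order did not, AREG aside. In knockdown-labelled cells ADAM17, at 5.00 to 5.94 CPM per kilobase, lay above EGFR, at 3.62 to 4.28, whereas in rescue cells EGFR, at 6.92 to 7.16, lay above ADAM17, at 3.59 to 4.30. Taking the longest transcript as the length put ADAM17 above EGFR in controls as well, at 6.22 and 5.59 CPM per kilobase, so that this order depends on the length used.

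The genes whose log2 CPM followed each called member most closely over the 9 libraries were listed as a description, among 11538 or 11539 protein-coding genes of at least 2 CPM on average. For EGFR they were ZCCHC2 (Pearson r 0.987), ABHD2 (0.974) and CLCF1 (0.971). For EGF they were TRAPPC13 (0.973), SGO2 (0.956) and EXOSC8 (0.948). ADAM17 was followed by VPS35 (0.981), TMEM143 (0.979) and HBS1L (0.974), and CBL by MUC20 (0.968), MAP3K14 (0.963) and CLMN (0.952). The 9 points share 3 groups and the same library scaling.

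Beyond the members, 55 other genes of the pathway were listed by role, and 46 were tested. In rescue against knockdown-labelled cells 4 rose, none fell and 42 did not pass. The share that passed, 8.7%, was near the 9.83% of all genes, and the median log2 fold change was 0.12, with 31 of 46 values above 0, beside -0.00 over all genes. PTPRJ, a receptor-type tyrosine phosphatase that acts on EGFR, had 64.3, 67.3 and 64.3 CPM in the rescue, 38.5, 38.0 and 34.2 CPM in the knockdown-labelled and 47.0, 47.2 and 47.2 CPM in control libraries. The groups did not overlap in any pair, with rescue highest and knockdown-labelled lowest, and PTPRJ rose by a log2 fold change of 0.82 in rescue against knockdown-labelled libraries (SE 0.103, edgeR adjusted p = 0.0071). It passed in all 9 fits that left out 1 library. When only these 2 groups were fitted PTPRJ did not pass (edgeR adjusted p = 0.0546), where 0.0426% of all genes did.

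GRB7, an adaptor that binds ERBB2, had 61.9, 71.9 and 68.6 CPM in the rescue, 31.9, 42.1 and 45.5 CPM in the knockdown-labelled and 45.5, 50.3 and 54.4 CPM in control libraries. Rescue libraries were above all others, and the log2 fold change against knockdown-labelled libraries was 0.76 (SE 0.145, edgeR adjusted p = 0.0150). FRMD8, which keeps the sheddase complex of ADAM17 and iRhom at the cell surface, rose by 0.43 (SE 0.107, edgeR adjusted p = 0.0335), at 57.9 ± 4.93 CPM in rescue and 43.0 ± 0.503 CPM in knockdown-labelled libraries (SD, n = 3 each). AKT2, a kinase downstream of PI3K, rose by 0.52 (SE 0.132, edgeR adjusted p = 0.0351), at 152 ± 3.02 CPM in rescue and 106 ± 17.9 CPM in knockdown-labelled libraries (SD, n = 3 each). GRB7 passed in 5 and FRMD8 and AKT2 in 1 of the 9 fits that left out a library, in both cases the fit without knockdown-labelled library 3, and correcting for the length and GC content of genes left AKT2 at 0.03 (edgeR adjusted p = 0.925). That correction also ended the calls of FRMD8 (0.23, edgeR adjusted p = 0.261) and GRB7 (0.60, 0.0819), where 6.39% of all genes passed.

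By role, 1 of 7 shedding genes, 1 of 9 adaptors and docking proteins, 1 of 5 inhibitors and 1 of 6 tested PI3K-AKT genes rose, and none of the 10 RAS-ERK core genes or the 6 tested ligases and deubiquitinase passed. Single calls in groups of this size stand beside 4.44% of all genes that rose and say nothing about a role. No listed gene passed in edgeR between knockdown-labelled and control or between rescue and control cells, and 7 (15.2%) had an unadjusted p under 0.05 in each, beside 19.1% and 10.5% of all genes. The other receptor, ERBB4, had 105, 55 and 19 counts in the rescue, 25, 29 and 86 in the knockdown-labelled and 47, 62 and 57 in control libraries. Its counts ranged widely within the rescue and knockdown-labelled groups.

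Transcripts of the other ligands were scarce in all groups. HBEGF, a ligand cut by ADAM17, had 33, 17 and 34 counts in rescue libraries, 14, 16 and 6 in knockdown-labelled libraries and 10, 17 and 12 in control libraries. Scaled to CPM the groups overlapped, and the log2 fold change of 0.83 did not pass (edgeR adjusted p = 0.279). NRG4, a ligand of ERBB4, had 86, 47 and 55 counts in rescue, 48, 51 and 63 in knockdown-labelled and 75, 49 and 81 in control libraries, and its groups overlapped. TGFA, EPGN, EREG, BTC, NRG1 and NRG2 each had at most 10 counts in any library and were not tested, and NRG3 had 0 counts in all 9.

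**Figure D5:**
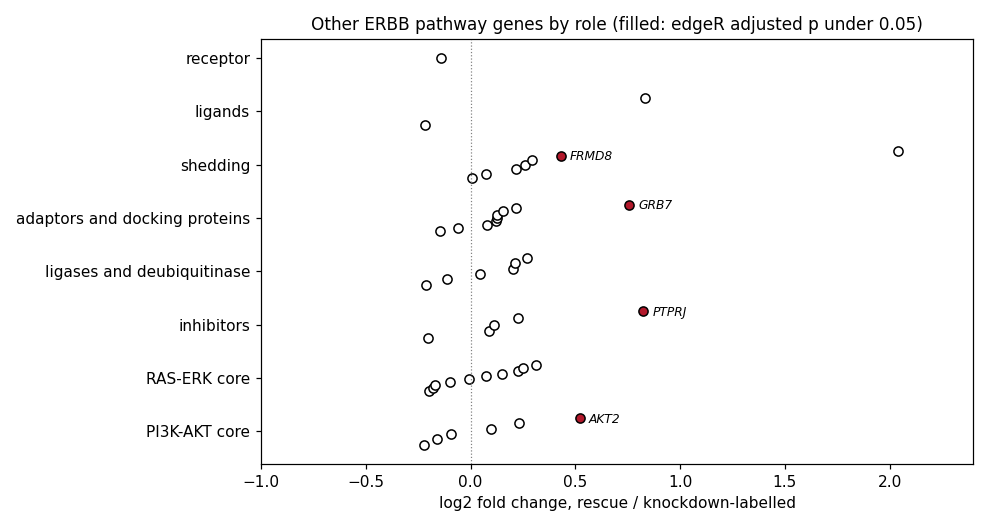
Log2 fold change (horizontal axis) of rescue against knockdown-labelled cells for the 46 tested pathway genes beyond the members, by role; each point is a gene and filled points passed at an edgeR adjusted p under 0.05. The 4 filled points, FRMD8, GRB7, PTPRJ and AKT2, all lie to the right of 0, between 0.43 and 0.82.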

How the data were processed

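Total RNA of LAPC4 cells was sequenced in 9 libraries. The submitters' processing notes name the hg38 build with HTSeq, STAR, cutadapt and FastQC; their versions, the annotation and the strand setting are not stated there. The authors deposited raw gene counts as whole numbers without normalization. Reads outside every feature (43.7% to 48.7%), ambiguous reads (2.36% to 3.14%) and reads with several alignments (7.67% to 11.6%) stayed out of library sizes and tests. No pair of replicates agreed within sampling noise.

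The test was edgeR 4.0.16 (R 4.3.3), with filterByExpr at a minimum count of 10, scaling by TMM, a quasi-likelihood F test with 9 libraries in one fit (6 residual degrees of freedom) and Benjamini-Hochberg adjustment over 16796 genes, with 0.05 as the threshold. CPM are counts per 1000000 scaled by TMM. Fits were tested on simulated data for each comparison, with 100 genes changed 2-fold and 100 changed 4-fold. They recovered 57 to 65 of the 2-fold and 86 to 97 of the 4-fold changes, with 4 to 9 false calls. Changes smaller than 2-fold were not simulated, so a member that did not pass may still differ. Positions, lengths and overlaps came from GENCODE (55647 of 60325 symbols matched one gene), and promoters from RefSeq. Members, gene lists and tests were chosen with earlier results of these data known. All members, the pathway genes that passed, ERBB4 and the ligands are named by rule. The alternatives were DESeq2 1.42.0, limma 3.58.1 voom, other scalings, filters and thresholds, fewer groups, the replicate number as a block, libraries left out, and a loess correction for length and GC content (known for 96.4% of genes tested).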

Additional observations from a re-analysis of the deposited data

How the results depend on the processing

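Over the 20 alternatives and 27 member values, 452 of 540 kept direction and side of the threshold, 37 lost a call, 26 gained one and 25 changed sign, none of them a call. Most of these values had no call to lose, and all 37 losses fell on the 4 calls of rescue against knockdown-labelled cells. Of the 20 alternatives, EGFR lost its call in 5, CBL in 8, EGF in 11 and ADAM17 in 13. Counts of genes passing for rescue against knockdown-labelled cells were 1651, but 2636 with no filter, 442 with the replicate block, 162 at 0.01, 7 with only these groups, 3619 without knockdown-labelled libraries 1 and 2, 2702 with DESeq2, 1035 (380 higher, 655 lower) after the length and GC correction, and 134 to 6745 with 1 library left out; library size alone gave 1557 (1327 higher, 230 lower), against 745 higher and 906 lower. Members passing there were 4, but 1 with the block, 0 at 0.01, 0 with only these groups and 0 to 7 with 1 library left out. For knockdown-labelled against control cells 1 gene passed, but 153 with library size alone, 1045 with no filter, 0 with the block, 0 with only these groups, 2115 without libraries 1 and 2, 1009 with DESeq2, 3 after the length and GC correction and 0 to 5691 with 1 library left out; members were 0, but 1 without libraries 1 and 2, 1 with DESeq2 and 0 to 1. For rescue against control cells 25 genes passed, but 401 with no filter, 4 with the block, 3 at 0.01, 962 with only these groups, 977 without libraries 1 and 2, 326 with DESeq2, 13 with voom and 1 to 1276 with 1 library left out; members were 0, but 1 with no filter, 4 with only these groups, 4 without libraries 1 and 2, 2 with DESeq2 and 0 to 4. The cause of these changes was not tested. Fits without libraries 1 and 2 keep 1 knockdown-labelled library, which is assumed to vary like the other groups.

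Signs changed as follows. After the length and GC correction, knockdown-labelled against control gave EGFR 0.0062, ERBB2 0.26, CBL 0.032 and LRIG1 0.036, rescue against knockdown-labelled gave ERBB2 -0.032 and ERBB3 -0.19, and rescue against control gave ERBB3 -0.024 and ADAM17 -0.0096. ERBB3 in knockdown-labelled against control was -0.0017 with DESeq2 size factors, -0.21 with library size alone, -0.012 with no filter, -0.0036 at 1 CPM, -0.0047 with only these groups and -0.0018 with the DESeq2 test, and -0.016 for rescue against knockdown-labelled without libraries 1 and 2. With 1 library left out, ranges were -0.25 to 0.039 for EGFR, -0.10 to 0.11 for ERBB2, -0.040 to 0.056 for ERBB3 and -0.36 to 0.25 for UGT2B28 in knockdown-labelled against control, -0.0089 to 0.11 for ERBB3 in rescue against knockdown-labelled, and -0.0063 to 0.11 for ERBB3 and -0.041 to 0.096 for ADAM17 in rescue against control.

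With the replicate number as a block, EGFR kept its call in rescue against knockdown-labelled cells (edgeR adjusted p = 0.0365) and CBL (0.0566), EGF (0.0954) and ADAM17 (0.0818) did not. The numbers only name the libraries: correlations of same-numbered libraries ran from -0.355 to 0.0784.

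AREG and most other ligands were too low to test, and EGF rested on 75 to 143 counts a library.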
